A study of Mus musculus with 18 samples.

Results

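The genes described here are Nfe2l2, which encodes the transcription factor Nrf2, and 8 genes known as its antioxidant targets: Nqo1, Hmox1, Gclc, Gclm, Txnrd1, Srxn1, Gsr and Slc7a11. They were taken from the gene count table by symbol, each symbol matched a single row, and they make up 9 of the 54532 genes in the table. All 9 passed the filter on low counts, as did 17876 genes in all, but Slc7a11 did so through shRNA and lamin A libraries, with at most 5 counts in a control library, so counts of members called are given with and without it. The choice of genes used no measured value, but it was made with earlier results of these data known.

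Nrf2 is held at a low level in resting cells by Keap1, which hands it to a Cul3 ubiquitin ligase for degradation. When electrophiles or peroxides modify Keap1, Nrf2 accumulates, pairs with a small Maf protein and binds antioxidant response elements in the promoters and enhancers of its targets. Because this control acts on the protein, the RNA level of Nfe2l2 need not follow the activity of Nrf2. In the heart the targets supply glutathione, regenerate thioredoxin and peroxiredoxins, and degrade heme, and several of them also answer to other factors, such as Atf4 at Slc7a11 and Bach1 and AP-1 at Hmox1.

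RNA was sequenced from the apex of mouse hearts in 18 libraries, 3 in each of 6 groups, all labelled WT in genotype. The series asked what raising lamin A or lamin C by rAAV9, an adeno-associated virus vector, does in hearts with a dilated cardiomyopathy produced by Lmna knockdown. Batch LC held hearts given Lmna shRNA+Lamin C, hearts given Lmna shRNA, and control hearts. Batch LA held hearts given Lmna shRNA+Lamin A, hearts given Lmna shRNA, and control hearts. These are called lamin C, lamin A, shRNA and control hearts below, each set against the shRNA or control hearts of its own batch. What the control hearts received, the promoter and dose of each vector, and the strain, age and sex of the mice do not appear in the sources used here. Each lamin was present in 1 batch, so a direct comparison of lamin C with lamin A hearts would mix lamin and batch, and the lamins are compared through the differences from their own shRNA or control hearts. Nothing in the labels says that the libraries came from separate litters or days, so the p-values measure the spread between these samples only.

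Total counts per library ran from 31418657 to 41259968, and 3 counts equalled between 0.0622 and 0.108 CPM, a scale that sets each count against the TMM-scaled total of its library. The Lmna count was not lower in shRNA hearts: it stood at 115 to 137 CPM in shRNA hearts of batch LC, against 120 to 128 CPM in controls, and at 122 to 130 CPM in shRNA hearts of batch LA, against 112 to 120 CPM in controls. It reached 1064 to 1375 CPM in lamin C hearts and 501 to 556 CPM in lamin A hearts. The groups are therefore named by their labels. The mitochondrial share of counts was 13.0% to 15.6% in shRNA hearts and 25.2% to 27.0% in control hearts over both batches, with 23.2% to 24.8% in lamin C and 20.3% to 22.6% in lamin A hearts, and the summed markers of cardiomyocytes, fibroblasts and macrophages differed between the groups as well. In such bulk tissue fewer cells of a type and less RNA per cell cannot be told apart. Replicate 3 of the batch LC controls stood apart from replicates 1 and 2. In the sample labels it is numbered directly after control replicate 3 of batch LA, far from replicates 1 and 2, and it was kept in batch LC as labelled. Its level of the clock gene Arntl was 26.2 CPM, against 0.751 and 1.37 CPM in the other two and 21.4 to 24.0 CPM in the controls of batch LA, and the values of Nfe2l2, Nqo1 and Gclm, which moved more than those of the other genes save Slc7a11 when it was left out, are also given without it.

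Levels per gene length were compared with the FPKM values of the authors. In control hearts of batch LC, Nqo1 was the most abundant of the 9 at 32.4 ± 6.35 FPKM (SD, n = 3), followed by Nfe2l2 at 20.5 ± 3.23, Txnrd1 at 9.90 ± 0.341, Gsr at 8.79 ± 0.0667 and Srxn1 at 7.77 ± 0.578 FPKM. Hmox1, Gclm and Gclc followed at 4.37 ± 0.486, 4.29 ± 0.707 and 4.0 ± 0.165 FPKM, with overlapping libraries. Slc7a11 was close to absent at 0.000822 ± 0.00142 FPKM. In shRNA hearts Hmox1 stood second in the order, at 31.3 ± 3.49 FPKM in batch LC and 32.3 ± 1.92 FPKM in batch LA, where its libraries overlapped those of Nqo1 at 33.3 ± 0.910 FPKM. In lamin C hearts Hmox1 stood at 10.6 ± 1.21 FPKM, below Nfe2l2 and overlapping Txnrd1, while in lamin A hearts it was still second at 26.8 ± 0.813 FPKM.

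The promoters are shown because the antioxidant response element is the sequence through which Nrf2 is known to act on its targets. Its part in the changes given below was not tested. RefSeq windows of 300 bases on GRCm38.p6, the assembly also called mm10, were found for 6 of the 9 genes, with 8 windows in all, since Txnrd1 has 3 annotated starts. Hmox1, Gclc and Gsr had none in that set. Each stretch below is given 5′ to 3′ on the strand of the gene, with capitals for the matches described after it.
Srxn1, chr2:152105364-152105563, plus strand, bases -160 to 40 from the start: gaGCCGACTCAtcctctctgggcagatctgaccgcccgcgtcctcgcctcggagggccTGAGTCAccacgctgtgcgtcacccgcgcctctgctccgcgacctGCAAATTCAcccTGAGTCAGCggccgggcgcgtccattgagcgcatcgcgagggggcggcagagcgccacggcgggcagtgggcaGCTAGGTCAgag
Gclm, chr3:122245377-122245476, plus strand, bases -180 to -81 from the start: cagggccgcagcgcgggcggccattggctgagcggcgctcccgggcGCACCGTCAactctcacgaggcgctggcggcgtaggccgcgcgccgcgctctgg
Txnrd1, chr10:82859068-82859167, plus strand, bases -138 to -39 from 1 of its starts: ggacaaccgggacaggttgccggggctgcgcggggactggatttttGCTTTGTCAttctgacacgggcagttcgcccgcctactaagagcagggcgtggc
Nfe2l2, chr2:75704814-75704913, minus strand, bases -250 to -151 from the start: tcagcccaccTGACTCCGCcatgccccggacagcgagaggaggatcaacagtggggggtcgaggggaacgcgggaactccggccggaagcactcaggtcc
Slc7a11, chr3:50443564-50443763, minus strand, bases -150 to 50 from the start: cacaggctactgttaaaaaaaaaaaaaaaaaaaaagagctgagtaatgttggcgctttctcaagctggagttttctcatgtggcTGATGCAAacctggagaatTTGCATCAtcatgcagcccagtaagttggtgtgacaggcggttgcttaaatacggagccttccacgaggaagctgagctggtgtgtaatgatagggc

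The core of the antioxidant response element, searched as TGACNNNGC on both strands, was present in the windows of Srxn1, Gclm, Txnrd1 and Nfe2l2, which is 4 of the 6 genes and 4 of their 8 windows, against 12.4% of all 32851 promoter windows. In Gclm it read TGACGGTGC on the strand opposite to the gene at bases -134 to -126, in Txnrd1 TGACAAAGC at -92 to -84, in Nfe2l2 TGACTCCGC on the strand of the gene at -240 to -232, and in Srxn1 TGACCTAGC at 29 to 37. The Srxn1 window also held TGAGTCGGC at -158 to -150, TGAATTTGC at -57 to -49 and TGAGTCAGC at -45 to -37, which match the wider form TGANNNNGC but not the core. That wider form was found in 5 of the 6 genes, in 6 of their 8 windows and in 41.3% of all windows. The Srxn1 window also held the AP-1 site TGACTCA on the strand opposite to the gene at 2 places, at -102 to -96 and at -45 to -39, the second inside TGAGTCAGC, and 5.2% of all windows hold that site. Slc7a11 had no core match and held the amino acid response element TGATGCAA, bound by Atf4, once on each strand at -66 to -59 and -47 to -40. At least 1 match to it on either strand was found in 0.895% of all windows. No search letters were found in the Nqo1 window, and a match or its lack says nothing on binding in these hearts.

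In shRNA hearts 7 of the 9 genes were higher than in control hearts of batch LC and 8 of the 9 in batch LA, and none was lower (edgeR quasi-likelihood test, adjusted p under 0.05 over all genes). Without Slc7a11 these were 6 and 7 of 8 genes. Hmox1, heme oxygenase 1, stood about 7-fold above control in both batches, while Srxn1, Gclm and Gclc were between 1.65-fold and 2.22-fold above. Gsr was not called in either batch, and Nqo1 only in batch LA. These counts stand against a wide background: 33.3% of all genes tested were called higher and 29.6% lower in batch LC, and 32.4% higher and 29.0% lower in batch LA. The median log2 fold change of the 8 genes other than Slc7a11 was 0.54 in batch LC and 0.63 in batch LA, against 0.05 for all genes tested in both. Where groups are said below not to overlap, the share of all genes without overlap was not counted, so this does not set the genes apart.

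**Figure D1:**
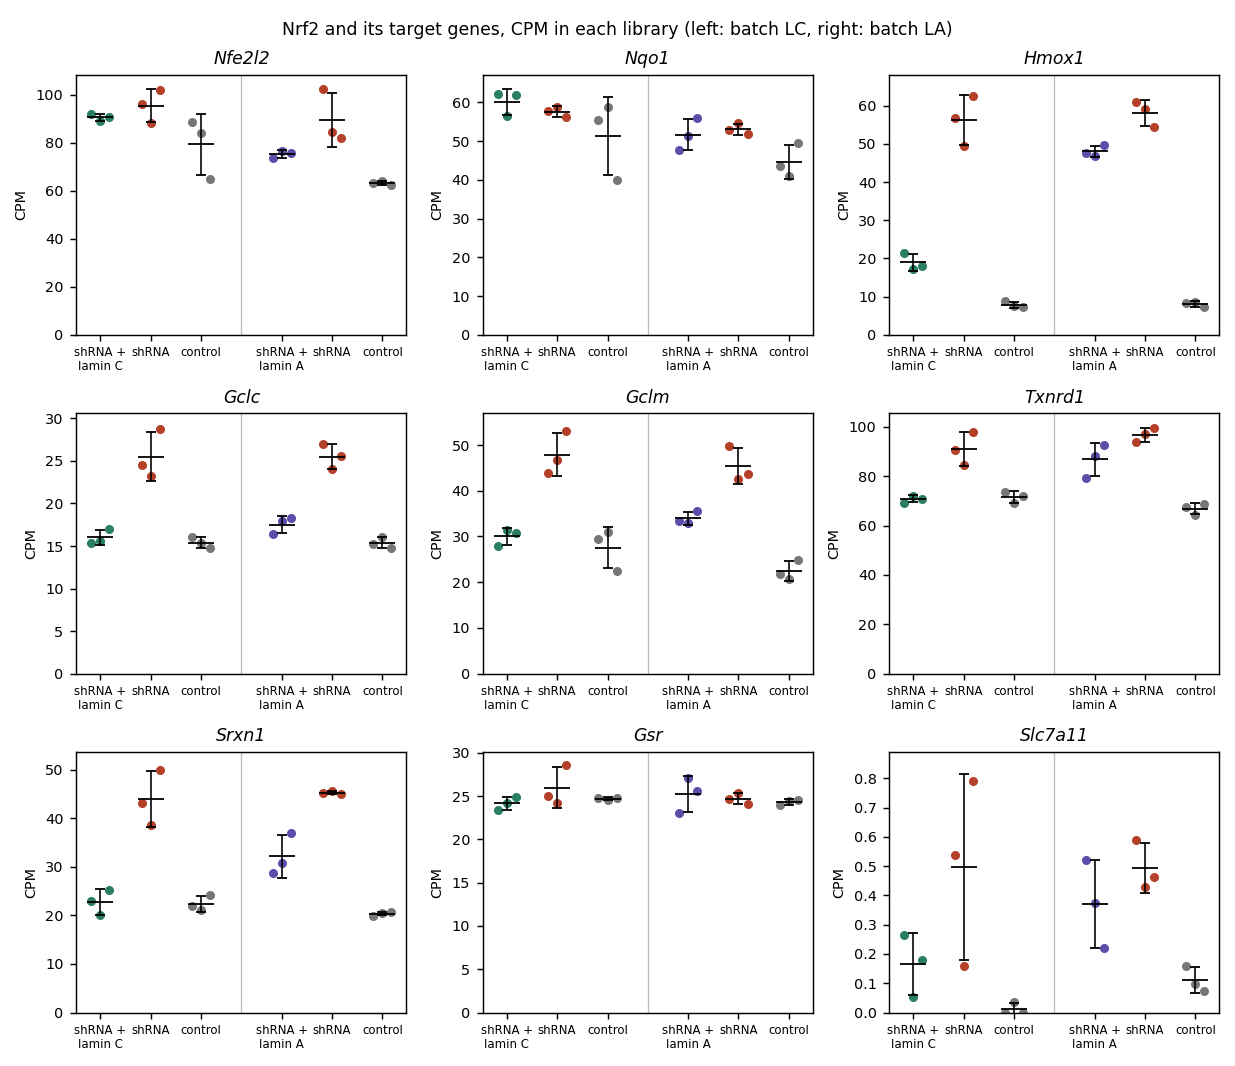
CPM of each gene in the 18 libraries, 1 panel per gene, with batch LC left and batch LA right of the grey line; dots are libraries, and the bar and whiskers are the mean and SD of 3. Hmox1 shows a wide separation, at 49.4 to 62.4 CPM in shRNA hearts of batch LC, against 7.16 to 8.79 CPM in controls, while Gsr stays between 23.1 and 28.6 CPM throughout.

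Hmox1 encodes the enzyme that opens heme into biliverdin, iron and carbon monoxide. Its level was 56.8, 49.4 and 62.4 CPM in shRNA hearts of batch LC, against 8.79, 7.47 and 7.16 CPM in controls. It was 61.0, 59.1 and 54.4 CPM in shRNA hearts of batch LA, against 8.43, 8.65 and 7.25 CPM in controls. Every shRNA library was therefore far above every control library of its batch. The log2 fold change was 2.85 ± 0.103 (SE) in batch LC with an edgeR adjusted p of 1.50e-13, and 2.84 ± 0.102 in batch LA with an adjusted p of 1.57e-13, which are rises of 7.19-fold and 7.15-fold.

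Gclc and Gclm encode the catalytic and the modifier subunit of glutamate-cysteine ligase, the first and rate-limiting enzyme of glutathione synthesis. Gclc stood at 24.5, 23.3 and 28.7 CPM in shRNA hearts of batch LC, against 16.0, 15.4 and 14.8 CPM in controls, and at 27.0, 24.0 and 25.6 CPM in shRNA hearts of batch LA, against 15.3, 16.1 and 14.8 CPM in controls. The groups did not overlap in either batch, and the log2 fold change was 0.73 ± 0.0800 and 0.73 ± 0.0797 (edgeR adjusted p 1.65e-07 and 1.59e-07). Gclm stood at 43.8, 46.8 and 53.1 CPM in shRNA hearts of batch LC, against 29.4, 31 and 22.4 CPM in controls, and at 49.8, 42.6 and 43.7 CPM in shRNA hearts of batch LA, against 21.8, 20.7 and 25.0 CPM in controls. It rose by 0.80 ± 0.102 and 1.01 ± 0.104 on the log2 scale (adjusted p 1.35e-06 and 6.19e-08). Control replicate 3 of batch LC gave the lowest Gclm value of its group, close to the batch LA controls, and without it the batch LC rise was 0.66 (adjusted p 4.45e-06). The ratio of Gclm to Gclc in FPKM lay between 1.07 and 1.21 in shRNA hearts of batch LC, against 0.907 to 1.21 in controls, and between 1.02 and 1.11 in shRNA hearts of batch LA, against 0.773 to 1.01 in controls.

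Srxn1 encodes sulfiredoxin, which reduces overoxidised peroxiredoxins, and its promoter is the one above that holds 4 matches to the wider element. Its level was 43.1, 38.6 and 50 CPM in shRNA hearts of batch LC, against 21.9, 21.1 and 24.2 CPM in controls, and 45.2, 45.5 and 45.0 CPM in shRNA hearts of batch LA, against 19.9, 20.5 and 20.7 CPM in controls. The lowest shRNA library was above the highest control library in each batch. Srxn1 rose by 0.97 ± 0.10 on the log2 scale in batch LC (edgeR adjusted p 6.38e-08) and by 1.15 ± 0.101 in batch LA (6.86e-09). Txnrd1, the cytosolic thioredoxin reductase, changed less, with 90.4, 84.4 and 98.0 CPM in shRNA hearts of batch LC, against 73.7, 69.0 and 72.2 CPM in controls. It had 93.8, 97.0 and 99.5 CPM in shRNA hearts of batch LA, against 67.4, 64.3 and 68.7 CPM in controls. These groups did not overlap either, and the log2 fold change was 0.34 ± 0.0624 and 0.53 ± 0.0625 (adjusted p 8.25e-05 and 4.01e-07).

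Nfe2l2 itself was called higher in both batches. It stood at 95.9, 88.4 and 102 CPM in shRNA hearts of batch LC, against 88.8, 84.0 and 65.1 CPM in controls, and these groups overlapped. In batch LA it stood at 102, 84.4 and 81.8 CPM in shRNA hearts, against 63.2, 64.1 and 62.5 CPM in controls, with no overlap. On the log2 scale batch LC gave 0.27 ± 0.0927 with an edgeR adjusted p of 0.0173, while batch LA gave 0.50 ± 0.0932 with one of 0.000116. In batch LC the call rested on single libraries: without control replicate 3, the library that stood apart, the change was 0.13 with an adjusted p of 0.151, and without shRNA replicate 3 it was 0.22 with an adjusted p of 0.0713. It was also lost with the compared groups alone (adjusted p 0.0652). In batch LA the call was lost under none of 15 alternatives.

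Nqo1 encodes the NAD(P)H quinone reductase often used as a readout of Nrf2, and Gsr encodes glutathione reductase. Nqo1 stood at 57.8, 58.9 and 56.1 CPM in shRNA hearts of batch LC, against 55.5, 58.7 and 39.9 CPM in controls, where the low value is again control replicate 3. In batch LA it stood at 53.0, 54.6 and 51.8 CPM in shRNA hearts, against 43.6, 41 and 49.4 CPM in controls. The groups overlapped in batch LC and not in batch LA. The log2 fold change of Nqo1 was 0.16 ± 0.102 in batch LC, with a 95% interval of -0.06 to 0.39 (edgeR adjusted p 0.172), and 0.25 ± 0.103 in batch LA (adjusted p 0.0411). In batch LC it was 0.00268 without control replicate 3 and 0.26, with a call at an adjusted p of 0.0446, without control replicate 2. The batch LA call was lost under 10 of 15 alternatives, 5 of them the fits without control replicate 1 or 2 or without any 1 of the shRNA libraries, with adjusted p between 7.41e-06 and 0.180 over all 15. Gsr had 24.2 to 28.6 CPM in shRNA hearts of batch LC, against 24.5 to 24.8 CPM in controls, and 24.1 to 25.4 CPM in shRNA hearts of batch LA, against 24.0 to 24.6 CPM in controls. Its 95% interval for the log2 fold change was -0.08 to 0.22 in batch LC and -0.13 to 0.17 in batch LA.

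Slc7a11, the cystine carrier that feeds glutathione synthesis, was measured by few reads. It had 26, 6 and 31 counts in shRNA hearts of batch LC, against 0, 1 and 0 counts in controls, and 25, 18 and 20 counts in shRNA hearts of batch LA, against 5, 3 and 2 counts in controls. No shRNA library fell to the control range. With a single control count in batch LC, the ratio of scaled counts was 43.9 with a 95% counting interval of 7.59 to 1760, and no fitted fold change is given. In batch LA the ratio was 4.43 with an interval of 2.26 to 9.69, and the edgeR log2 fold change was 2.12 ± 0.623 (adjusted p 0.00622). These intervals cover counting error only. Because the gene passed the filter through the groups where it is high, its calls add nothing to the counts of members.

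No difference between the batches in the rise was called. None of the 9 genes was called in the difference of the 2 shRNA effects by edgeR, as was 0.00559% of genes in either direction (1 gene), with 2 of the 9 genes and 1143 of all genes at an unadjusted p under 0.05. Over all genes the calls were 25 higher and 22 lower without control replicate 3 of batch LC, and 160 higher and 87 lower with no filter on low counts, and none of the 9 was called in either. DESeq2 called none of the 9 either. The 2 genes under 0.05 unadjusted were Txnrd1, at -0.19 with an interval of -0.38 to 0.00255 (edgeR p 0.0448, adjusted 0.773), and Slc7a11 (p 0.0406, adjusted 0.762), whose fitted difference rests on 1 control count in batch LC and is not given. Intervals are wider than the edgeR test implies, as set out under the processing, so that of Txnrd1 includes 0. The interval of the difference, batch LC minus batch LA, was -0.30 to 0.32 on the log2 scale for Hmox1 and -0.25 to 0.24 for Gclc. For Nfe2l2 it was -0.52 to 0.05, and for Srxn1 -0.49 to 0.13. Without control replicate 3 of batch LC the difference was -0.36 for Nfe2l2, against -0.23 with it, -0.24 for Nqo1, against -0.09, and -0.35 for Gclm, against -0.22, with edgeR adjusted p of 0.221, 0.436 and 0.328.

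The scale of the libraries bears on all these values. With library totals in place of TMM factors, all 9 genes, Gsr and Nqo1 included, were called higher in shRNA hearts of both batches, but the median of all genes was then 0.47 in batch LC and 0.48 in batch LA, against 0.05 in both with TMM. The split of calls over all genes moved to 10429 higher and 2415 lower in batch LC, against 5948 and 5299 with TMM, and to 10637 and 2270 in batch LA, against 5784 and 5191. Gsr was then 0.50 and 0.46 higher on the log2 scale, which is about the median of all genes.

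**Figure D2:**
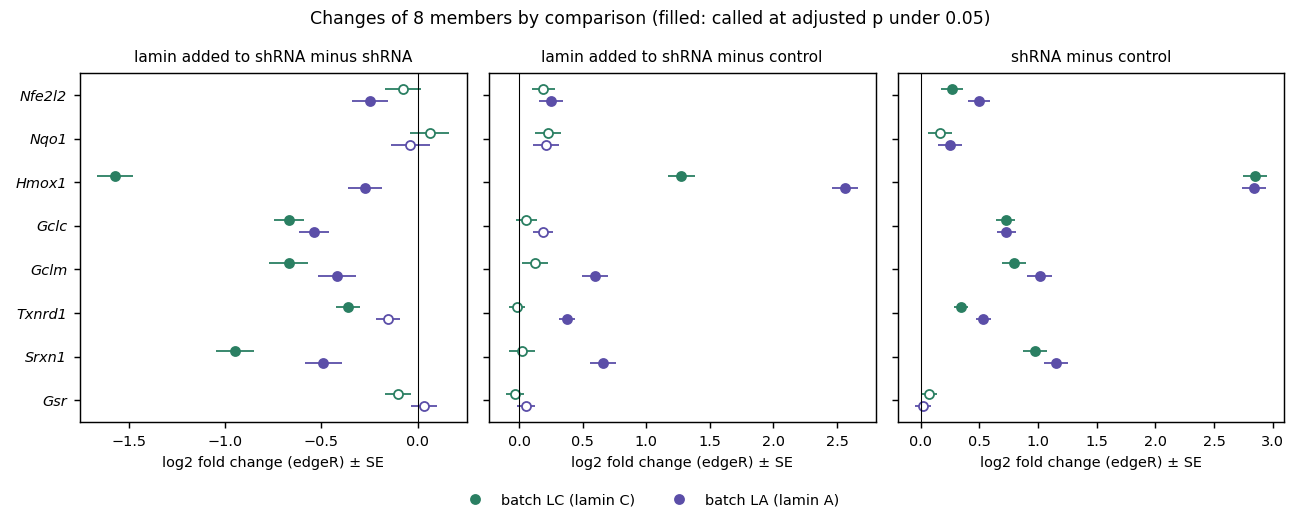
Log2 fold changes (edgeR) with SE for 8 of the genes in 3 kinds of comparison, in batch LC (green) and batch LA (violet); filled dots were called and open dots were not, and Slc7a11 is left out because batch LC controls held 1 count. Hmox1 lies at 2.85 and 2.84 in shRNA minus control, and at 1.27 and 2.56 in lamin C and lamin A hearts minus control.

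In lamin C hearts 6 of the 9 genes were lower than in shRNA hearts of the same batch and none was higher, where 28.4% of all genes were lower and 25.7% higher. In lamin A hearts 5 of the 9 were lower than in shRNA hearts and none was higher, where 13.7% of all genes were lower and 16.1% higher. Without Slc7a11 the count was 5 of 8 genes with each lamin. Without lamin A replicate 1 or 2, or shRNA replicate 1 of batch LA, the lamin A count was 3. The median log2 fold change of those 8 genes was -0.52 with lamin C and -0.26 with lamin A, against -0.04 and -0.00293 for all genes tested. Under library totals the counts were 9 and 7 lower, with medians of all genes at -0.36 and -0.21, and calls over all genes split into 2337 higher and 9213 lower for lamin C and 1280 higher and 6205 lower for lamin A, against 4592 and 5070, and 2881 and 2449, with TMM.

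Hmox1 fell to 21.4, 17.3 and 18.1 CPM in lamin C hearts, against 56.8, 49.4 and 62.4 CPM in shRNA hearts. In lamin A hearts it held 47.7, 46.7 and 49.7 CPM, against 61.0, 59.1 and 54.4 CPM in shRNA hearts. Neither pair of groups overlapped, but the gap was wide with lamin C and narrow with lamin A. The log2 fold change was -1.57 ± 0.0933 for lamin C (edgeR adjusted p 1.14e-10) and -0.28 ± 0.0883 for lamin A (adjusted p 0.0232). The lamin A call was lost without replicate 1 or 2 of the lamin A or of the shRNA hearts, at -0.24 to -0.27 with adjusted p up to 0.0924, and the lamin C call in none of 15 alternatives.

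The glutamate-cysteine ligase genes fell with both lamins. Gclc was at 15.4, 15.6 and 17 CPM in lamin C hearts, against 23.3 to 28.7 CPM in shRNA hearts, and at 16.4, 18 and 18.2 CPM in lamin A hearts, against 24.0 to 27.0 CPM in shRNA hearts. Gclm was at 27.9, 31.4 and 30.8 CPM in lamin C hearts, against 43.8 to 53.1 CPM in shRNA hearts, and at 33.5, 32.8 and 35.5 CPM in lamin A hearts, against 42.6 to 49.8 CPM in shRNA hearts. None of these 4 pairs of groups overlapped, a trait that was not counted over all genes. The log2 fold changes of Gclc were -0.67 ± 0.0791 and -0.54 ± 0.0781 (edgeR adjusted p 6.65e-07 and 3.28e-05), and those of Gclm -0.67 ± 0.101 and -0.42 ± 0.10 (adjusted p 1.40e-05 and 0.00346), for lamin C and lamin A in that order. These Gclc and Gclm calls held under all 15 alternatives.

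Srxn1 was at 23.0, 20.1 and 25.3 CPM in lamin C hearts, against 38.6 to 50 CPM in shRNA hearts, and at 28.7, 30.8 and 37.1 CPM in lamin A hearts, against 45.0 to 45.5 CPM in shRNA hearts. The groups did not overlap, and the log2 fold change was -0.95 ± 0.0993 for lamin C and -0.49 ± 0.0969 for lamin A (edgeR adjusted p 1.39e-07 and 0.000717). Txnrd1 was at 69.3, 72.1 and 71.0 CPM in lamin C hearts, against 84.4 to 98.0 CPM in shRNA hearts, and at 79.5, 88.3 and 92.8 CPM in lamin A hearts, against 93.8 to 99.5 CPM in shRNA hearts. It fell by 0.36 ± 0.0623 on the log2 scale with lamin C (adjusted p 6.58e-05) and was not called with lamin A at -0.16 ± 0.0618 (adjusted p 0.0657), although the groups did not overlap. Without lamin A replicate 3 it was called at -0.20 (adjusted p 0.0316).

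Nfe2l2 stood at 91.9, 88.9 and 90.9 CPM in lamin C hearts, inside the range of the shRNA hearts, with a log2 fold change of -0.08 ± 0.0922 (edgeR adjusted p 0.512). In lamin A hearts it stood at 73.5, 76.7 and 75.7 CPM, against 81.8 to 102 CPM in shRNA hearts, and the log2 fold change of -0.25 ± 0.0924 was called narrowly (adjusted p 0.0490). That call was lost under 8 of 15 alternatives, with adjusted p between 0.000630 and 0.297, among them the fits without each lamin A library and without shRNA replicate 1, where the change was -0.14. Nqo1, at 56.4 to 62.3 CPM in lamin C hearts and 47.8 to 55.9 CPM in lamin A hearts, was not called against shRNA hearts, with 95% intervals of -0.16 to 0.28 and -0.26 to 0.18 on the log2 scale. Gsr was not called either, at 23.4 to 24.9 CPM in lamin C hearts and 23.1 to 27.1 CPM in lamin A hearts. Under library totals both genes were lower in called comparisons that had the opposite sign with TMM: Nqo1 at -0.25 in lamin C hearts, and Gsr at -0.17 in lamin A hearts.

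Slc7a11 had 8, 2 and 6 counts in lamin C hearts, against 26, 6 and 31 counts in shRNA hearts, and the groups overlapped. It had 18, 14 and 9 counts in lamin A hearts, against 25, 18 and 20 counts in shRNA hearts, again with overlap. The edgeR log2 fold change was -1.61 ± 0.572 for lamin C (adjusted p 0.0234), a call lost without lamin C replicate 2 or 3 or shRNA replicate 1 or 3 at -1.14 to -1.68, and -0.42 ± 0.498 for lamin A (adjusted p 0.572).

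Set against control, 2 of the 9 genes were higher in lamin C hearts and 6 of the 9 in lamin A hearts, with none lower, or 1 and 5 of 8 without Slc7a11. Over all genes 8.87% were higher and 6.18% lower in lamin C hearts, and 24.1% were higher and 22.1% lower in lamin A hearts. The 1105 genes lower in lamin C hearts became 709 without control replicate 1, 441 without lamin C replicate 1 and 560 without lamin C replicate 3. The median of the 8 genes was 0.09 with lamin C and 0.31 with lamin A on the log2 scale, against 0.00165 and 0.02 for all genes. Under library totals the counts were 4 and 9, with medians of all genes at 0.11 and 0.26 and splits of 2879 higher and 293 lower, and of 7676 and 1760, against 1585 and 1105, and 4314 and 3952, with TMM.

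Hmox1 was higher than control with either lamin, by 1.27 ± 0.105 on the log2 scale in lamin C hearts and by 2.56 ± 0.102 in lamin A hearts (edgeR adjusted p 3.37e-07 and 2.39e-12). These are 2.42-fold and 5.91-fold. The other gene called in lamin C hearts was Slc7a11, with 16 counts over the 3 libraries against 1 in controls, 13.9 times as many after scaling (95% counting interval 2.16 to 583), and its call (adjusted p 0.0485) was lost in 5 of the 6 fits without a library, all but that without lamin C replicate 2, each leaving Hmox1 as the 1 gene called. In lamin A hearts Slc7a11 had 41 counts, against 10 in controls, 3.26 times as many (interval 1.61 to 7.29; adjusted p 0.0394), and that call was lost under DESeq2 and without control replicate 2 or 3 or lamin A replicate 1 or 2.

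Gclm, Txnrd1 and Srxn1 were higher than control in lamin A hearts, by 0.60 ± 0.104, 0.38 ± 0.0625 and 0.66 ± 0.101 on the log2 scale (edgeR adjusted p 0.000103, 5.58e-05 and 2.41e-05). In lamin C hearts the same 3 genes gave 0.12 ± 0.104, -0.02 ± 0.0627 and 0.02 ± 0.103, and none was called. Their lamin C libraries overlapped the control libraries, while their lamin A libraries lay above all 3 controls. Gclc was not called in either, at 0.06 ± 0.0821 in lamin C hearts and 0.19 ± 0.0810 in lamin A hearts (adjusted p 0.710 and 0.0659), with a call in lamin A hearts at 0.23 without lamin A replicate 1 (adjusted p 0.0409). Nqo1 was not called in either, at 0.23 ± 0.103 in lamin C hearts and 0.21 ± 0.103 in lamin A hearts, and was called in lamin A hearts at 0.29 without control replicate 3 (adjusted p 0.0497). Gsr was not called in either, at -0.03 ± 0.0681 in lamin C hearts and 0.05 ± 0.0676 in lamin A hearts. Nfe2l2 was called in lamin A hearts at 0.25 ± 0.0934 (adjusted p 0.0339), a call lost in each of the 6 fits without a library at 0.23 to 0.27, and was not called in lamin C hearts at 0.19 ± 0.0929 (adjusted p 0.185). Without control replicate 3 of batch LC, which stood apart, the lamin C values were 0.07 for Nfe2l2, 0.07 for Nqo1 and -0.00569 for Gclm.

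The difference between the lamins was tested as the change in batch LC minus the change in batch LA. As a change from shRNA hearts, 2 of the 9 genes differed, both lower with lamin C, where 9.90% of all genes were lower and 8.84% higher. As a distance from control, 4 of the 9 differed, all lower with lamin C, where 7.35% of all genes were lower and 7.29% higher. Slc7a11 was called in neither. Under library totals the calls over all genes split into 924 higher and 2749 lower for the change from shRNA hearts, against 1581 and 1769 with TMM, and into 681 and 2372 for the distance from control, against 1303 and 1313. Without lamin C replicate 2 those 1303 genes became 858. Hmox1 differed by -1.30 ± 0.128 as a change from shRNA hearts and by -1.29 ± 0.147 as a distance from control (edgeR adjusted p 5.34e-06 and 3.51e-05), and both calls held under all 21 alternatives. Srxn1 differed by -0.46 ± 0.138 and -0.64 ± 0.144 (adjusted p 0.0261 and 0.00581). The Srxn1 call as a change from shRNA hearts was lost in 4 of 12 fits without a library, the lamin C 2, lamin A 3, shRNA LC 3 and shRNA LA 3 libraries, with values between -0.34 and -0.45 and 1 gene called in those 4, and the distance from control was called in all 12.

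Txnrd1 differed as a distance from control by -0.39 ± 0.0886 (edgeR adjusted p 0.00538), called in all 21 alternatives, and by -0.21 ± 0.0877 as a change from shRNA hearts, which was not called (adjusted p 0.116). That change was called under 3 of 21 alternatives, at -0.32 with library totals, -0.27 without lamin A replicate 1 and -0.26 without shRNA replicate 2 of batch LC. Gclm differed as a distance from control by -0.47 ± 0.147 (adjusted p 0.0374), a call lost under limma, with a replicate block at -0.47 (adjusted p 0.0505), and in 9 of 12 fits without a library at -0.38 to -0.50, all but those without control replicate 3 of batch LC, control replicate 3 of batch LA or lamin A replicate 2. Without control replicate 3 of batch LC it was -0.60 (adjusted p 0.00389). Gclc, the partner subunit of Gclm, showed no called difference, with intervals of -0.37 to 0.11 and -0.38 to 0.12 on the log2 scale. Nqo1, Nfe2l2, Gsr and Slc7a11 were not called in either difference, and the interval of the Nqo1 distance was -0.30 to 0.33. Without control replicate 3 of batch LC the distance was -0.13 for Nqo1, against 0.01 with it, and -0.18 for Nfe2l2, against -0.06. Lamin C hearts carried more Lmna RNA than lamin A hearts, as given above, and its part in these differences was not tested.

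**Figure D3:**
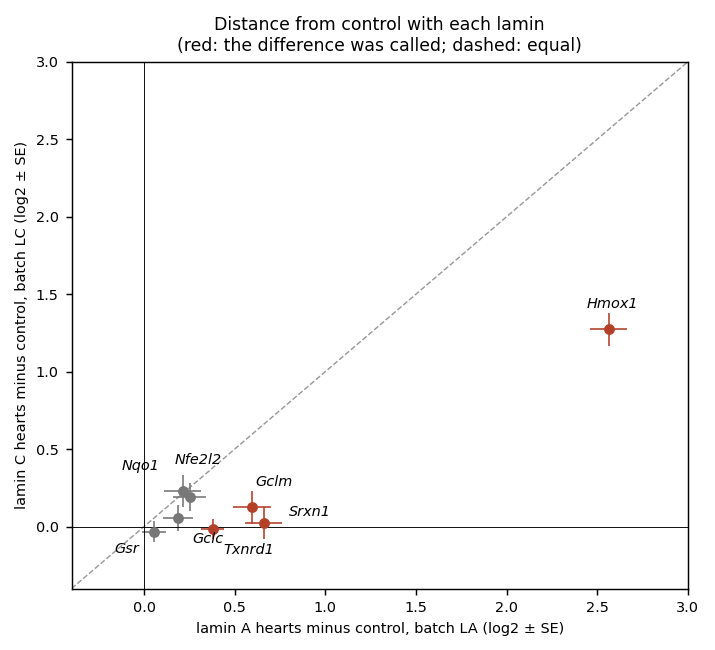
Log2 fold change from control in lamin A hearts of batch LA (x axis) and in lamin C hearts of batch LC (y axis) with SE for 8 genes; red dots differed between the lamins in the edgeR test, grey dots did not, and the dashed line marks equal values. Hmox1, at 2.56 and 1.27, and Srxn1, at 0.66 and 0.02, lie below the line.

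Markers of cell types that can express these genes shifted with the groups. Each count of markers called in shRNA hearts stands beside the shares of all genes. These were 33.3% higher and 29.6% lower in batch LC, and 32.4% higher and 29.0% lower in batch LA. Macrophage and monocyte markers, among them the complement genes C1qa to C1qc and the receptor Csf1r, summed to 1736 to 1922 CPM in shRNA hearts of batch LC, against 445 to 549 CPM in controls, and to 1668 to 1822 CPM in shRNA hearts of batch LA, against 495 to 526 CPM in controls. Lamin C hearts summed to 776 to 930 CPM and lamin A hearts to 1470 to 1586 CPM. All 14 were at 1 CPM or more in each group, and 13 of 14 were called higher in shRNA hearts of each batch. With either lamin 13 of 14 were called higher than control, where 8.87% of all genes were higher with lamin C and 24.1% with lamin A. Hmox1, which is abundant in macrophages that clear red cells, lay between shRNA and control hearts of its batch with either lamin, as did these sums. The fibroblast sums below did so too, and the cardiomyocyte sums did so in the opposite direction. The part of any of these cells in the Hmox1 level was not tested.

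Fibroblast markers summed to 6984 to 9246 CPM in shRNA hearts of batch LC, against 1119 to 1386 CPM in controls, and to 8653 to 8822 CPM in shRNA hearts of batch LA, against 1286 to 1385 CPM in controls. They stood at 1883 to 2782 CPM in lamin C hearts and at 5272 to 7031 CPM in lamin A hearts, and 10 of 10 were called higher in shRNA hearts of each batch. Cardiomyocyte markers summed to 35015 to 41602 CPM in shRNA hearts of batch LC, against 88261 to 93201 CPM in controls, and to 38449 to 39701 CPM in shRNA hearts of batch LA, against 85577 to 87806 CPM in controls, and 10 of 10 were called lower in each batch. Lamin C hearts held 74786 to 78171 CPM and lamin A hearts 55806 to 59133 CPM of them. The part of these shifts in the levels of Hmox1, Srxn1, Gclm, Gclc and Txnrd1 was not tested. Endothelial markers summed to 825 to 974 CPM in shRNA hearts of batch LC, against 1293 to 1487 CPM in controls, and to 1026 to 1035 CPM in shRNA hearts of batch LA, against 1440 to 1545 CPM in controls. The sums were 1181 to 1190 CPM in lamin C hearts and 1274 to 1316 CPM in lamin A hearts. Of the 10 endothelial markers 9 were called lower and 1 higher in shRNA hearts of each batch, with a median log2 fold change of -0.46 and -0.52. These medians are close in size to those of all genes under library totals, 0.47 and 0.48, so this fall depends on the scale of the libraries. T and natural killer cell markers were scarce, with a median sum of 8.90 CPM in shRNA hearts of batch LC, against 2.25 CPM in controls, and of 8.97 CPM in shRNA hearts of batch LA, against 3.63 CPM in controls, with 7 of 8 higher and none lower in each batch. Only 1 of the 8 was at 1 CPM or more in control hearts of either batch. Some may have passed the filter on low counts through the shRNA hearts, so these calls carry little weight. Of 7 neutrophil markers 1 was at 1 CPM or more in shRNA and control hearts, with S100a8, S100a9 and Ly6g under 1 CPM, and of 7 erythroid markers 5 were called lower in shRNA hearts of each batch, Hba copies among them being uncertain.

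**Figure D4:**
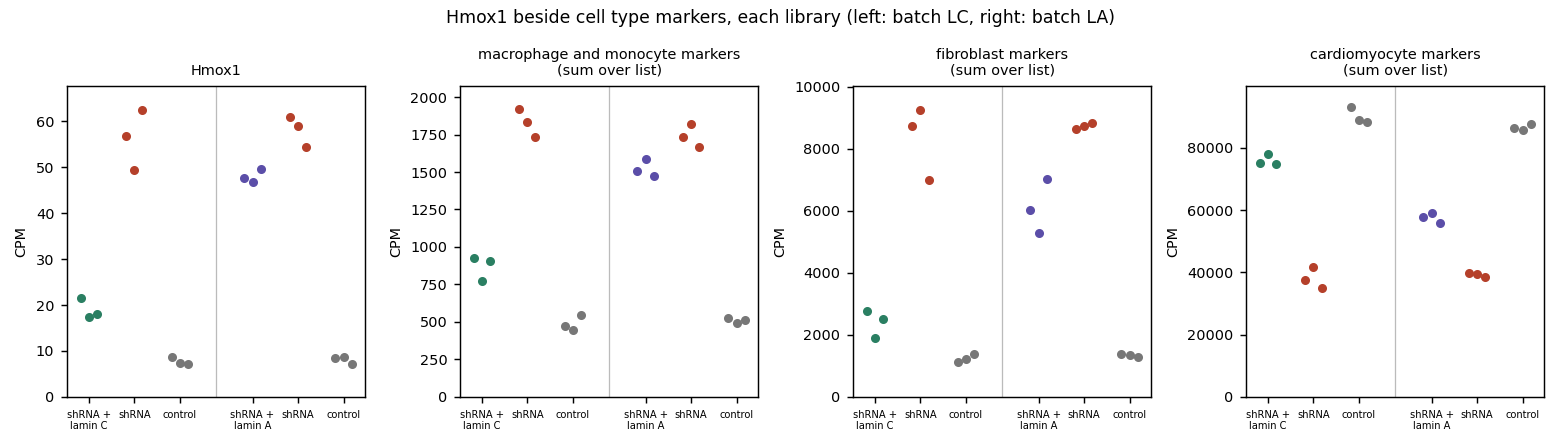
CPM of Hmox1 beside the summed CPM of macrophage and monocyte, fibroblast and cardiomyocyte markers in each library, with batch LC left and batch LA right of the grey line; each dot is a library. Macrophage markers and Hmox1 are both high in shRNA and lamin A hearts and lower in lamin C hearts, at 776 to 930 CPM for the markers and 17.3 to 21.4 CPM for Hmox1. Fibroblast markers are also higher in lamin A hearts, at 5272 to 7031 CPM, than in lamin C hearts, at 1883 to 2782 CPM.

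The pattern over the 18 libraries was compared with that of other protein-coding genes of at least 5 CPM by the root mean square difference in log2 CPM, each library set against the mean of its batch's controls. The genes closest to Hmox1 were Fstl3, a secreted activin inhibitor, at 0.188, and Trem2, a macrophage receptor, at 0.214. Those closest to Txnrd1 were Gars and Nars, which encode transfer RNA synthetases, at 0.0695 and 0.0815. Those closest to Gclm were Rab29 and the glucose carrier Slc2a1 at 0.120 and 0.124. Those closest to Gclc were Mfge8 and Gyg at 0.0812 and 0.0814, and those closest to Srxn1 were 2010111I01Rik and Atp6ap2 at 0.113 and 0.115. For Nfe2l2 they were Ehd4 and Capns1 at 0.0896 and 0.0929, for Nqo1 Capn1 and Zcchc9 at 0.0898 and 0.101, and for Gsr Smu1 and Psmd7 at 0.0551 and 0.0555. Slc7a11, with its few counts, lay 0.528 from Nlrc3 and 0.538 from Maff. No member was among the 2 nearest genes of another.

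Other genes of the pathway are given list by list, and each count stands beside the 33.3% of all genes that were higher and the 29.6% that were lower in shRNA hearts of batch LC, and the 32.4% and 29.0% of batch LA. Among 11 regulators and partners of Nrf2, 3 were higher and 3 lower in shRNA hearts of batch LC, and 3 higher and 4 lower in batch LA, shares close to those of all genes. The 3 that rose were the small Maf genes Maff, by 2.41 ± 0.189 and 1.84 ± 0.184 on the log2 scale, and Mafk, by 1.09 and 1.21, together with Sqstm1, which encodes p62, a protein that binds Keap1, by 0.73 and 0.85. Maff had 16.9 to 33.6 CPM in shRNA hearts of batch LC, against 4.63 to 4.90 CPM in controls. Cul3, the ligase subunit, was called lower by 0.54 and 0.48 on the log2 scale with TMM. These values are close in size to the median of all genes under library totals, 0.47 and 0.48, so they depend on the scale of the libraries. Keap1, named for its role after its values were seen, was called lower at -0.24 and -0.26, which is less in size than the median of all genes under library totals. Maff fell with both lamins, by 1.43 with lamin C and 0.56 with lamin A on the log2 scale, and the difference between the lamins was called at -0.87 ± 0.240 (edgeR adjusted p 0.0150).

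Glutathione genes besides the members were mixed, with 9 of 16 higher and 5 lower in shRNA hearts of each batch. Gpx3, the secreted glutathione peroxidase, rose by 2.81 and 2.53 on the log2 scale and Gpx1, its cytosolic relative, by 1.18 in both batches, while Slc3a2, the heavy chain that carries Slc7a11 to the membrane, rose by 0.99 and 0.74. With lamin C Slc3a2 was lower than in shRNA hearts at -0.62, and with lamin A it was not called at -0.06. The glutathione S-transferases, many of them also known as Nrf2 targets, gave 1 of 15 higher and 10 lower in each batch, where 29.6% and 29.0% of all genes were lower. Their median log2 fold change was -0.54 in batch LC and -0.66 in batch LA, against 0.05 for all genes. This list, like the others, was counted with TMM only. Under library totals the median of all genes was 0.47 and 0.48, so the size of this fall depends on the scale of the libraries. Gstk1, found in mitochondria and peroxisomes, fell by 2.30 and 1.97 on the log2 scale and Gsta4 by 1.40 and 1.45, while Gstm7 fell by 1.87 and 1.95 but belongs to a family of near-identical copies and is uncertain. With lamin C 10 of the 15 were higher than in shRNA hearts and 1 was lower, and with lamin A 7 were higher and 1 lower, where 25.7% and 16.1% of all genes were higher.

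Of 14 thioredoxin and peroxiredoxin genes 4 were higher and 8 lower in shRNA hearts of batch LC, and 4 higher and 7 lower in batch LA. Prdx3 and Prdx5, peroxiredoxins found in mitochondria, and the mitochondrial thioredoxin Txn2 fell by 1.12, 0.90 and 1.01 on the log2 scale in batch LC and by 0.97, 0.88 and 0.93 in batch LA, whereas Prdx4 of the endoplasmic reticulum rose by 1.08 and 0.88. Genes of NADPH supply, which Srxn1, Txnrd1, Gsr and Nqo1 depend on directly or through their partners, gave 4 of 8 higher and 4 lower in each batch. G6pdx and Pgd of the pentose phosphate pathway rose by 0.99 and 0.69 in batch LC and by 1.18 and 0.72 in batch LA, while the mitochondrial Idh2 fell by 1.57 and 1.63 on the log2 scale and the cytosolic Idh1 by 0.71 and 0.57. Sod2, the mitochondrial superoxide dismutase, fell by 1.54 and 1.42 on the log2 scale and the extracellular Sod3 rose by 1.81 and 1.40. The lower values of Sod1 and Ccs changed sign under library totals.

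Genes of iron and heme handling gave 3 higher and 3 lower of 9 in batch LC and 4 and 4 in batch LA, with Hpx, set out below, among the 9. Only some of them act on the products of Hmox1. Ftl1, the ferritin light chain, rose by 1.42 and 1.36 on the log2 scale, with pseudogene copies that make it uncertain. Hpx, the heme-binding hemopexin, was measured by few reads. It had 43, 22 and 63 counts in shRNA hearts of batch LC, against 2, 3 and 2 counts in controls. In batch LA it had 58, 48 and 41 counts in shRNA hearts, against 0, 6 and 5 counts in controls. It passed the filter on low counts through the shRNA hearts, where it is high, so a call of Hpx carries no weight. The counts of this list above include it and were not made again without it. The iron exporter Slc40a1 fell by 1.28 and 0.98 on the log2 scale. Among 15 tested genes of quinone, aldehyde and xenobiotic handling 6 were higher and 7 lower in each batch. The aldo-keto reductase Akr1b8 rose by 2.58 and 2.53 on the log2 scale, and Ugdh, which makes UDP-glucuronate, rose by 1.73 and 1.41. The mitochondrial aldehyde dehydrogenase Aldh2 fell by 1.15 and 1.12 on the log2 scale and the carbonyl reductase Cbr1 by 0.85 and 0.65. With the lamins Akr1b8 changed by -1.76 in lamin C hearts and -0.53 in lamin A hearts relative to shRNA hearts, and Ugdh by -1.31 and -0.17, the last not called. Aldh2 changed by 0.96 and 0.47 and Cbr1 by 0.68 and 0.32. Of 7 selenium genes, whose products Txnrd1 needs for its selenocysteine, 2 were higher and 3 lower in batch LC, and 1 higher and 3 lower in batch LA.

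Of 9 genes of superoxide-producing oxidases 7 were higher in each batch and none was lower, where 33.3% and 32.4% of all genes were higher. Their median log2 fold change was 1.82 and 1.55. Nox4 rose by 4.47 and 3.17 on the log2 scale, and Cybb, Ncf1, Ncf4 and Rac2 of the phagocyte oxidase rose by 1.82, 1.84, 2.09 and 2.06 in batch LC and by 1.55, 1.73, 2.31 and 2.06 in batch LA. These phagocyte genes stood beside the higher macrophage markers above. Genes of the amino acid response, another known control of Slc7a11, were higher for 8 of 10 tested and lower for 2 in each batch, with a median log2 fold change of 0.87 and 0.91. Atf3 rose by 2.84 and 3.25 on the log2 scale, Asns by 1.54 and 1.01, Slc7a5 by 1.72 and 1.58 and Slc1a4 by 2.42 and 2.06, and Slc7a1 fell by 0.98 and 0.80. With lamin C 8 of the 10 were lower than in shRNA hearts and 2 higher, and with lamin A 3 were lower and 1 higher, where 28.4% and 13.7% of all genes were lower.

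**Figure D5:**
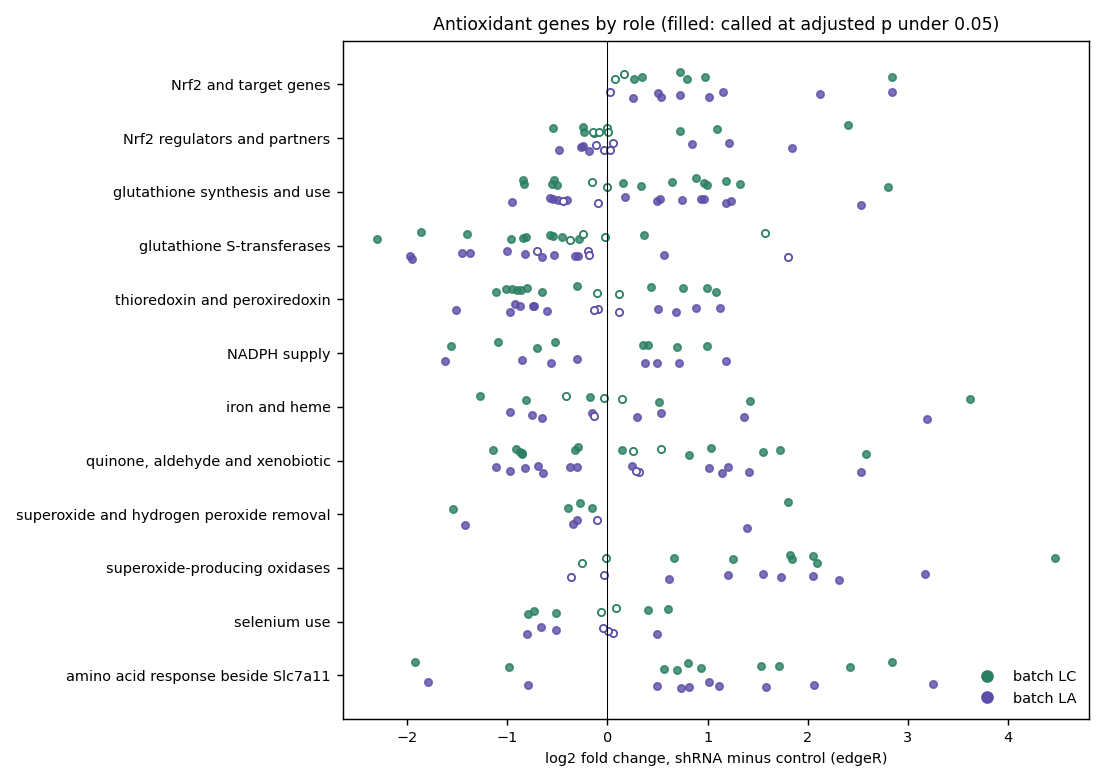
Log2 fold changes (edgeR) of shRNA minus control for the members and 11 lists of related genes, in batch LC (green) and batch LA (violet); each dot is a gene, filled where called. Oxidases lie mostly right of 0, glutathione S-transferases mostly left of it, and Slc7a11 is not drawn in batch LC.

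Several members share their locus with other annotated genes. Txnrd1 (52906 counts over the 18 libraries) overlaps the antisense Gm38560 (706 counts) and the gene Eid3 (169 counts), and Gclm (23023 counts) overlaps the antisense Gm17494 (170 counts) and the pseudogene Gm6061 (262 counts). The library kit marks the strand, but the sources used here do not state its use in counting, so these overlaps leave a small uncertainty in both genes. On mm10 the members lie on several chromosomes: Nfe2l2 and Srxn1 on chromosome 2, Slc7a11 and Gclm on chromosome 3, Gsr, Hmox1 and Nqo1 on chromosome 8, Gclc on chromosome 9 and Txnrd1 on chromosome 10, and all are annotated as protein-coding.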

How the data were processed

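Polyadenylated RNA of mouse heart apex was sequenced as directional libraries, per the labels' protocols. The whole-number gene counts and the FPKM values were deposited by the authors. Per the submitters' processing notes the build was mm10, and the tools named without a role were DESeq2 1.20.0, featureCounts 1.5.0-p3, HISAT2 2.0.5 and StringTie 1.3.3b. Counts of all 18 libraries in 6 groups were fitted with edgeR 4.0.16 in R 4.3.3 (TMM factors, filterByExpr, quasi-likelihood F test, 12 residual degrees of freedom), and p-values were adjusted by Benjamini-Hochberg over 17876 genes, with calls at 0.05. Standard errors come from the F statistic. The 95% intervals of log2 fold changes use these errors with the 12 residual degrees of freedom alone. The F test also draws on spread shared over genes, so these intervals are wider than that test implies. CPM used here is the count relative to the TMM-scaled library total.

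The members and lists were chosen with earlier results of these data known. Named genes were all 9 members, up to 4 called genes per list by smallest p in shRNA minus control of batch LC, up to 2 per list in the differences between effects, and the 2 nearest genes of each member (log2 CPM with a prior count of 2). Of 214 listed genes 213 were in the table, and Nnt and Ddit3 stood under more than 1 gene ID. No 2 replicates were copies, with chi-square per degree of freedom of 6.38 to 43.4. Alternatives were DESeq2 1.42.0, RLE factors, library totals, mitochondrially encoded genes removed, no filter, limma 3.58.1 on log2(FPKM + 1) or log2(FPKM + 0.1), the compared groups alone, a replicate block and each library left out. In simulated counts of shRNA minus control, batch LC (17295 genes), the edgeR test called 82.1% of changes of 1.5-fold, 97.0% of those of 2-fold and 100% of those of 4-fold, and for the shRNA effect, batch LC minus batch LA, 62.7%, 86.6% and 97.0%. Those simulations changed few genes, all above 1 CPM, up and down in equal number, with spread drawn from the overall trend. In these data a large share of genes was called, so the percentages are not the power of the real tests. Promoter windows came from RefSeq.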

Additional observations from a re-analysis of the deposited data

Results flagged for a closer look

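The tests of the difference between lamin C and lamin A called more genes than are named here, since up to 2 genes of each related list are named, those with the smallest p. Of 119 related genes, 24 were higher and 24 lower with lamin C as a change from shRNA hearts, 19 and 17 as a distance from control hearts, and 17 and 16 in both, beside 8.84% and 9.90% of all genes for the first difference and 7.29% and 7.35% for the second. Values are on the log2 scale as the change in batch LC minus the change in batch LA, with an edgeR adjusted p under 0.05 over all genes tested. As a change from shRNA hearts the members called were Hmox1 at -1.30 and Srxn1 at -0.46. The named genes of the related lists were lower with lamin C for Asns at -1.52, Sod3 at -1.25, Akr1b8 at -1.23, Ugdh at -1.14, Slc7a5 at -1.13, Maff at -0.87, Rac2 at -0.81, Ncf1 at -0.69, Slc3a2 at -0.56, Gpx1 at -0.48 and Pgd at -0.35. They were higher with lamin C for Cul3 at 0.31, Prdx5 at 0.36, Prdx3 at 0.43, Mgst3 at 0.45, Fech at 0.45, Sod2 at 0.46, Idh2 at 0.73, Slc40a1 at 0.77 and Gstk1 at 0.84.

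As a distance from control hearts the members called were Gclm at -0.47, Hmox1 at -1.29, Srxn1 at -0.64 and Txnrd1 at -0.39. Named related genes were lower with lamin C for Atf3 at -1.52, Akr1b8 at -1.17, Ncf4 at -1.03, Slc7a5 at -0.99, Sod3 at -0.83, Ugdh at -0.83, G6pdx at -0.66, Ncf1 at -0.58, Ftl1 at -0.52, Gpx8 at -0.52 and Gpx1 at -0.48. They were higher with lamin C for Cul3 at 0.25, Prdx5 at 0.33, Sod2 at 0.34, Fech at 0.40, Mgst3 at 0.49, Gsta4 at 0.55, Sesn1 at 0.58 and Idh2 at 0.79. Akr1b8, Ugdh, Slc7a5 and Sod3 are among the 16 lower in both, and Idh2, Sod2 and Prdx5 among the 17 higher in both.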

How the results depend on the processing

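Of all alternatives for the members, 1268 values kept the call and direction or had no call in either fit, 61 lost a call, 23 gained one and 2 changed sign with a call. Among the 1268 values, 39 changed sign while called in neither fit. In lamin C hearts against control, 1 member was called with the compared groups alone and under limma with either pseudocount, fits in which Slc7a11 was not tested, 4 with library totals, 4 with no filter, and 1 to 2 without single libraries, against 2 with the settings of the report. Without single libraries, named beside the results above, 3 to 5 members were called for lamin A against shRNA, and 1 to 3 for the difference of the lamin effects. Values that changed sign under library totals were Nqo1 -0.25 and Gsr -0.17 (given above), Ccs at -0.094 in lamin C minus shRNA, 0.13 in shRNA minus control of batch LA and 0.16 in batch LC, Sod1 at -0.066, 0.092 and 0.035 in the same order, and Cul3 at -0.20 in lamin A minus shRNA. Library totals differ from TMM by the shift of all genes given above, and the cause of the other changes was not tested.

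Replicates with the same number did not deviate together, with 18 correlations between -0.05 and 0.06. These values gave no sign of pairing by number, but they cannot show that the samples were unpaired, and the labels do not say. With a replicate block 7 and 8 members were called in shRNA minus control of batches LC and LA, 6 and 4 for lamin C and lamin A against shRNA, 2 and 6 against control, and 2 and 3 for the differences between the lamins. Slc7a11, at most 31 counts in a library, is limited by depth.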
